A study of Mus musculus with 12 samples.

Results

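The genes described here are the ligands and receptors of axon guidance, taken as all gene IDs whose mouse symbol belongs to the semaphorins, plexins, ephrins, Eph receptors, netrins, Unc5 receptors, Slits or Robos and whose deposited gene length is under 400000 bases. They number 59 of the 27095 genes counted. There are 19 semaphorins, 8 plexins, 8 ephrins, 12 Eph receptors, 4 netrins, 3 Unc5 receptors, 2 Slit ligands and 3 Robo receptors, which makes 33 ligands and 26 receptors. The length limit left out 7 of 66 matching symbols (Epha6, Ephb1, Plxna4, Robo2, Sema5a, Slit3 and Unc5d). The longest genes kept were Unc5c (369359 bases) and Robo1 (382952 bases), and the shortest left out were Ephb1 (432566 bases) and Plxna4 (443650 bases).

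Growth cones, the moving tips of axons, are steered by secreted or membrane-bound ligands that attract or repel them through receptors on the axon. Semaphorins signal through plexins, ephrins through Eph receptors, Slits through Robos, and netrins through Dcc, neogenin and the Unc5 receptors. The same ligands and receptors also act before axons form, in the sorting, adhesion and migration of neural progenitors and of blood vessels.

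The data are ChIP-seq libraries, in which chromatin fragments bound by an antibody are sequenced, and the antibody was against H3K14ac, histone H3 acetylated at lysine 14. HBO1, the enzyme encoded by Kat7, makes this mark of active chromatin. The cells were mouse neural stem and progenitors cultured from the cortex and ganglionic eminences of embryos at day 14.5. Differentiating wild-type (WT) cells had been dissociated and moved to laminin in a medium for cortical neurons, and proliferating WT cells grew as neurospheres. Each stage had 3 WT H3K14ac libraries, 1 H3K14ac library from cells labelled Hbo1 null, 1 IgG library (a non-specific antibody, with no genotype in the labels) and 1 input library (WT chromatin without immunoprecipitation). The series names 4 wild-type foetuses, but no label ties a library to a foetus or culture, so p-values measure only how far libraries vary, which may be technical. The labels say neither how long the cells differentiated nor how the null was made. Values come from bulk cultures, in which fewer cells carrying the mark and less mark per cell cannot be told apart.

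For every gene the authors counted reads in a start window of 1 kb, which begins at the transcription start site, and over the gene body, which contains that window. Gene body totals were 12549913 to 17074249 in differentiating and 3992697 to 7611239 in proliferating WT libraries, 320601 and 64071 in the differentiating and proliferating libraries labelled null, 2771713 and 2526252 in IgG and 12689734 and 11871306 in input. CPM here is counts per 1e6 gene body counts. Single start windows are thin: those of the 59 genes held 4 to 51 counts (median 16) in differentiating and 1 to 30 (median 9) in proliferating WT libraries, 0 to 2 in those labelled null, 0 to 8 in IgG and 6 to 25 in input libraries. Kat7 held 11 gene body counts in the differentiating and 4 in the proliferating library labelled null. These are 34.3 and 62.4 CPM, against 26.9 to 37.9 CPM in the WT libraries, so at these few counts the gene body shows no loss of Kat7, and the labels do not say which part of the gene was removed. The 5 Y chromosome genes summed to 209 CPM in differentiating WT library 3 and 47.1 CPM in proliferating WT library 1, against 8.77 to 9.94 CPM in the other 4 WT libraries. The differentiating and proliferating IgG libraries held 228 and 187 CPM and those labelled null 143 and 46.8 CPM, unlike most WT libraries. The differentiating and proliferating inputs held 7.80 and 6.57 CPM, near the 4 WT libraries of low Y gene counts. Results that move without the 2 WT libraries of high Y gene counts are given both ways.

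Start sequences are shown for 5 of the genes. Ephb3 and Ntn4 had less signal in differentiating cells, Plxnb1 and Epha5 stood above input, and Epha10 had the lowest mean start signal over all 6 WT libraries. Each runs 5′ to 3′ on the gene's strand from 250 bases before to 50 bases after the start, as in RefSeq for GRCm38.p6, so that only its last 50 bases lie in the counted window. CG dinucleotides, the sites of DNA methylation that crowd in CpG island promoters, are in capitals. Ephb3 is at chr16:21204545-21204844 (plus strand), Ntn4 at chr10:93640799-93641098 (plus), Plxnb1 at chr9:109095186-109095485 (plus), Epha5 at chr5:84417333-84417632 (minus) and Epha10 at chr4:124881535-124881834 (plus).
Ephb3: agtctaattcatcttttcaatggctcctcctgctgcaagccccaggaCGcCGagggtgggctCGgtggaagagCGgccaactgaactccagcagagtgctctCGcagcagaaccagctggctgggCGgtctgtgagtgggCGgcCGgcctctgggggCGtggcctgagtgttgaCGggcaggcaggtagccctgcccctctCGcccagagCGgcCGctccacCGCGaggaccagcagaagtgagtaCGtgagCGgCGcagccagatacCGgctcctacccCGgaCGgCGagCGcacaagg
Ntn4: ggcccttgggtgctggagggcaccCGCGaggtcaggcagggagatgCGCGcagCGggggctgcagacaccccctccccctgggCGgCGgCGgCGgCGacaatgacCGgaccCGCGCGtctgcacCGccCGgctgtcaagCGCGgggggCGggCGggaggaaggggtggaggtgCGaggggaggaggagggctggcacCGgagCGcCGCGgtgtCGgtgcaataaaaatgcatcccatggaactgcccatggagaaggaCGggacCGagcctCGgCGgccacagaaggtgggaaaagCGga
Plxnb1: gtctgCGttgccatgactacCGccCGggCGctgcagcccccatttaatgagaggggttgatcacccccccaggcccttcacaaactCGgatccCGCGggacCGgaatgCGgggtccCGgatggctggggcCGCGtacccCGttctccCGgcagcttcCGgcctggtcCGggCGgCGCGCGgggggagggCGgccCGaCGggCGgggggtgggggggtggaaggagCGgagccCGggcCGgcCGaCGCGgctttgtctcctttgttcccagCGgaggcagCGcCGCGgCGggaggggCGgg
Epha5: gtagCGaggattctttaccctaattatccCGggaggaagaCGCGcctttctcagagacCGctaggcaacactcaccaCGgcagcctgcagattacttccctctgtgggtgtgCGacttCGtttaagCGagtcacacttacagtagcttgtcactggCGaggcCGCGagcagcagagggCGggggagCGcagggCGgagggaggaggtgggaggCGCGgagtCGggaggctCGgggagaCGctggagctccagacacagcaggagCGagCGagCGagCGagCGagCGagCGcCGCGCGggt
Epha10: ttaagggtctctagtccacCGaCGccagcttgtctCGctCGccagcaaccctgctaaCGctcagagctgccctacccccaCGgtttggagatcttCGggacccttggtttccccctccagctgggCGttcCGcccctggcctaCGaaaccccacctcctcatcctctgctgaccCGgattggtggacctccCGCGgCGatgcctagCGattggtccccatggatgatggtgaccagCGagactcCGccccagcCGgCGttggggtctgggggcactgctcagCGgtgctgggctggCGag

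These sequences hold 23 CG in Ephb3, 31 in Ntn4, 36 in Plxnb1, 30 in Epha5 and 21 in Epha10. The RefSeq promoter table used here held 52 of the 59 genes, and 37 of them had the start that the deposited gene length implies, within 50 bases. These 37 held 2 to 56 CG, with a median of 23, against a median of 13 over the 13871 counted genes that met the same condition. Their median GC content was 66.7%, against 56% over those genes. GGGCGG, the GC box bound by Sp factors, was found on either strand in 81.1% of the 37 and 45.7% of all such promoters. TATAAA, the core of the TATA box, was found in 0 of the 37 and 14.1% of all. The E-box CACGTG was in 5.41% and 8.08%, and the AP-1 motif TGACTCA in 2.7% and 5.07%. Across the 37 genes, CG number had a Pearson r of 0.16 with mean WT start signal (Spearman coefficient 0.20), a description over promoters that share the same 6 libraries.

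Signal at the starts of guidance genes was lower in differentiating than in proliferating cells at 3 genes and higher at none. The 3 were Ephb3, a receptor for B-type ephrins that sorts cells at tissue boundaries, and the netrins Ntn4, a basement membrane protein related to laminin chains, and Ntn1, the classical attractant of commissural axons. These made 6.67% of the 45 genes deep enough to test (mean count of at least 10), beside 6.45% called among all 19477 windows tested, 4.42% lower and 2.04% higher. The test was edgeR's quasi-likelihood test, adjusted by Benjamini-Hochberg over all windows, with TMM scaling, which sets changes against the typical start window. The median log2 change over the 45 genes was -0.14, beside 0.03 over all windows. No guidance gene was higher at an unadjusted p under 0.05 either, and 5 of the 45 were lower. Among all 19477 windows 1884 were higher and 2546 lower at that level.

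Ephb3 (gene ID 13845, chromosome 16, 21204620 to 21223309 in RefSeq) held 16, 15 and 18 start counts in the differentiating WT libraries and 18, 19 and 28 in the shallower proliferating ones. Scaled, this was 1.27, 1.17 and 1.05 CPM in differentiating cells, against 3.96, 4.76 and 3.68 CPM in proliferating cells. Input held 1.26 CPM in the differentiating and 0.674 CPM in the proliferating library. The 3 differentiating libraries thus lay at the level of their own input, and all 3 proliferating libraries lay far above theirs. The log2 change was -1.29 ± 0.29 (SE, adjusted p = 0.00206), and it passed the threshold in each fit that left out 1 library (adjusted p at most 0.0329).

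Ntn4 (gene ID 57764, chromosome 10, 93641049 to 93745972) held 27, 14 and 29 start counts in differentiating and 18, 24 and 29 in proliferating WT libraries. These were 2.15, 1.10 and 1.70 CPM in differentiating and 3.96, 6.01 and 3.81 CPM in proliferating cells, with 1.50 and 1.10 CPM in the differentiating and proliferating inputs. The groups did not overlap, and 2 of the 3 differentiating libraries exceeded their input, as did all 3 proliferating ones. The log2 change was -0.92 ± 0.28 (SE, adjusted p = 0.0267). It lost its call with a replicate block (adjusted p = 0.0556), without differentiating library 2 (-0.74, adjusted p = 0.144) or 3 (adjusted p = 0.0915), and without proliferating library 2 (-0.76, adjusted p = 0.142) or 3 (adjusted p = 0.0635).

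Ntn1 (gene ID 18208, chromosome 11, 68209364 to 68386826) held 18, 22 and 12 start counts in differentiating and 15, 15 and 23 in proliferating WT libraries. These were 1.43, 1.72 and 0.703 CPM in differentiating and 3.30, 3.76 and 3.02 CPM in proliferating cells, with 1.02 and 1.10 CPM in the differentiating and proliferating inputs. Again the groups did not overlap, and differentiating library 3, which has the high Y gene counts, was the lowest of all 6. The log2 change of -0.91 ± 0.30 (SE, adjusted p = 0.0454) was -0.50 without that library (adjusted p = 0.406), and among the fits that left out 1 library the call was kept only without differentiating library 2 (adjusted p = 0.0271). Ntn1 was also not called by DESeq2 (adjusted p = 0.0938) or with a replicate block (adjusted p = 0.0528). Without both WT libraries of high Y gene counts, Ephb3 alone of the 3 genes passed (-1.23, adjusted p = 0.0301).

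The next genes did not pass. Plxnb2, a receptor for class 4 semaphorins with a part in progenitor proliferation, had a log2 change of -0.74 (95% interval -1.33 to -0.15, adjusted p = 0.116). Plxnc1, the receptor of Sema7a, had one of -0.63 (-1.21 to -0.05, adjusted p = 0.177). At the other end Sema3f, a secreted repellent, had 0.64 (-0.13 to 1.41, adjusted p = 0.319). The standard error of a single start window was 0.27 to 0.42 log2 units. The smallest change called was -0.91 (Ntn1), and -0.74 and -0.63 were not called. Changes of well over 1 standard error could thus go uncalled at this depth.

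The scaling bears on how many genes are counted as lower. With gene body totals in place of TMM the median log2 change of all windows was -0.47 instead of 0.03, and 13 of the 45 guidance genes (28.9%) were lower, with none higher. Among all windows 26% were then called, 25.7% lower and 0.329% higher. Ephb3 then had a log2 change of -1.80, Ntn4 of -1.43 and Ntn1 of -1.40. On that scale every differentiating WT library lay below every proliferating one in 26 of the 59 genes. Among the 45 tested these were 23 genes (51.1%), beside 33.7% of all windows tested. The opposite arrangement was seen in none of the 59 genes and in 2.51% of all windows.

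**Figure D1:**
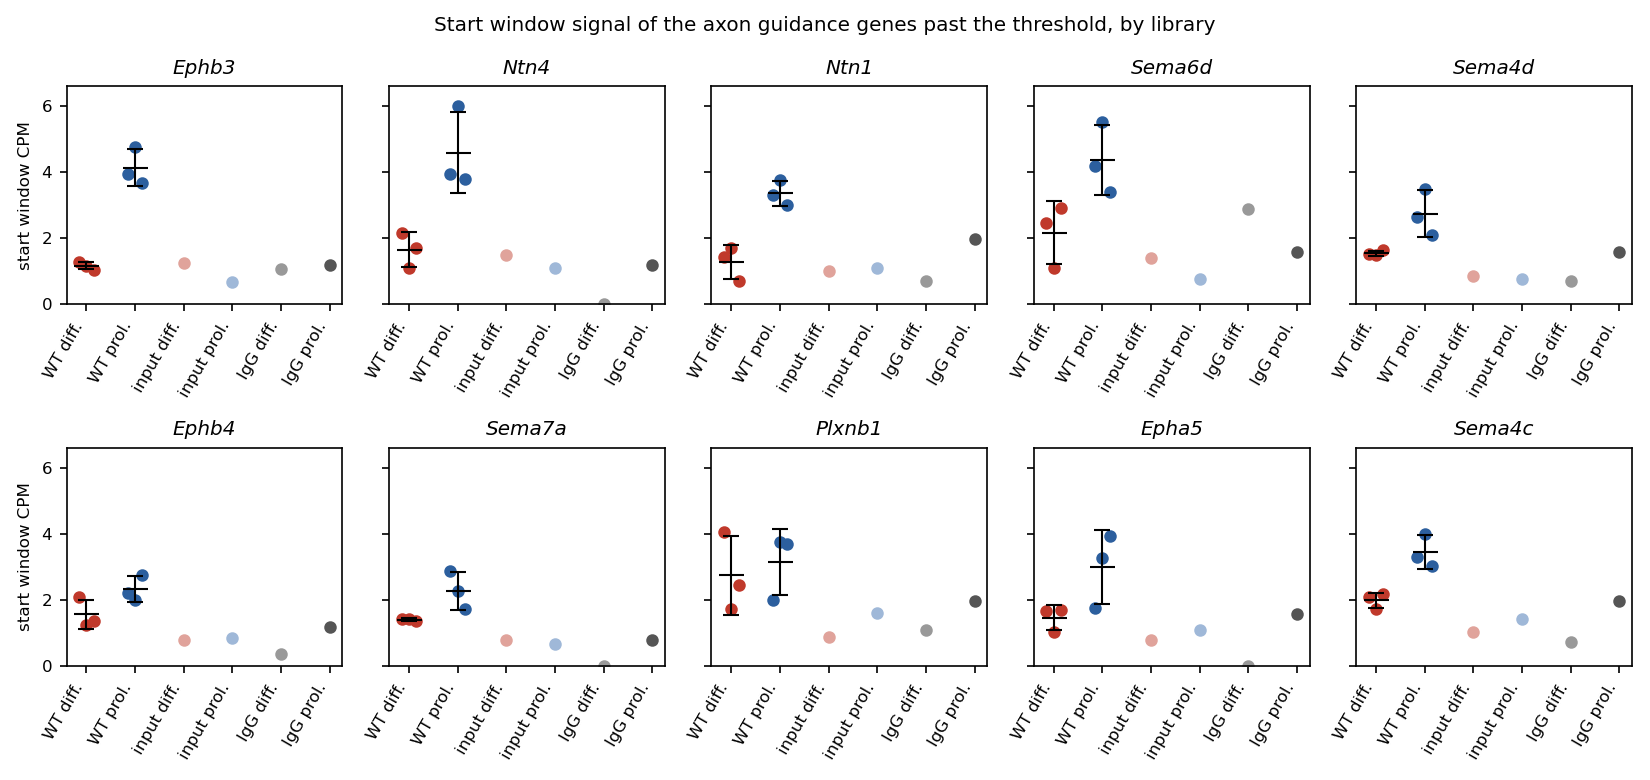
Start window signal (CPM per 1e6 gene body counts) of the 10 guidance genes that passed the test between stages or against input, 1 panel a gene, with 1 point per library for WT H3K14ac (mean ± SD, n = 3), input and IgG at each stage (diff., differentiating; prol., proliferating). At Ephb3, Ntn4 and Ntn1 every differentiating library lies below every proliferating one, while the WT groups of Plxnb1 overlap.

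Measured against the rest of the same gene, the starts were lower in differentiating cells for 13 of the 45 guidance genes tested (28.9%) and higher for none. That share was near the background, since 28.4% of the 17170 genes tested passed, 28.3% lower and 0.146% higher. The median log2 change was -0.63 over the guidance genes and -0.54 over all genes. It was negative in 43 of the 45 guidance genes, beside 13862 of the 17170 genes. This model takes the start window and the remainder of each gene in the same library, so library depth and scaling drop out.

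Of the 13 genes, 6 were ligands and 7 receptors. The largest changes among them were those of Ephb3 (-1.79 ± 0.33 SE, adjusted p = 3.55e-06), Epha5 (-1.38 ± 0.32, adjusted p = 0.00034), Ntn1 (-1.35 ± 0.33, adjusted p = 0.000569) and Ntn4 (-1.35 ± 0.30, adjusted p = 0.000147). Epha5 is a receptor for A-type ephrins in the mapping of forebrain and retinal axons. The other ligands were Efna2, an ephrin tethered by a lipid anchor (-1.18), Sema3e, which signals to plexin D1 (-1.11), and the transmembrane Sema6a (-0.98) and Sema6d (-0.87). The other receptors were Unc5a (-1.03) and Unc5c (-0.97), which turn netrin into a repellent, and the plexins Plxnc1 (-1.03), Plxnb2 (-1.01) and Plxna1 (-0.82). Plxna1 pairs with neuropilins as the receptor of class 3 semaphorins. Of the tested members, both Slits, all 3 Robos, Sema3f and Efnb3 were among those that did not pass. Leaving out 1 library gave 7 to 13 genes, with 7 without differentiating library 2 and 8 without proliferating library 2 or 3. The share of all genes called in these fits is not given, so the counts describe the fits.

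**Figure D2:**
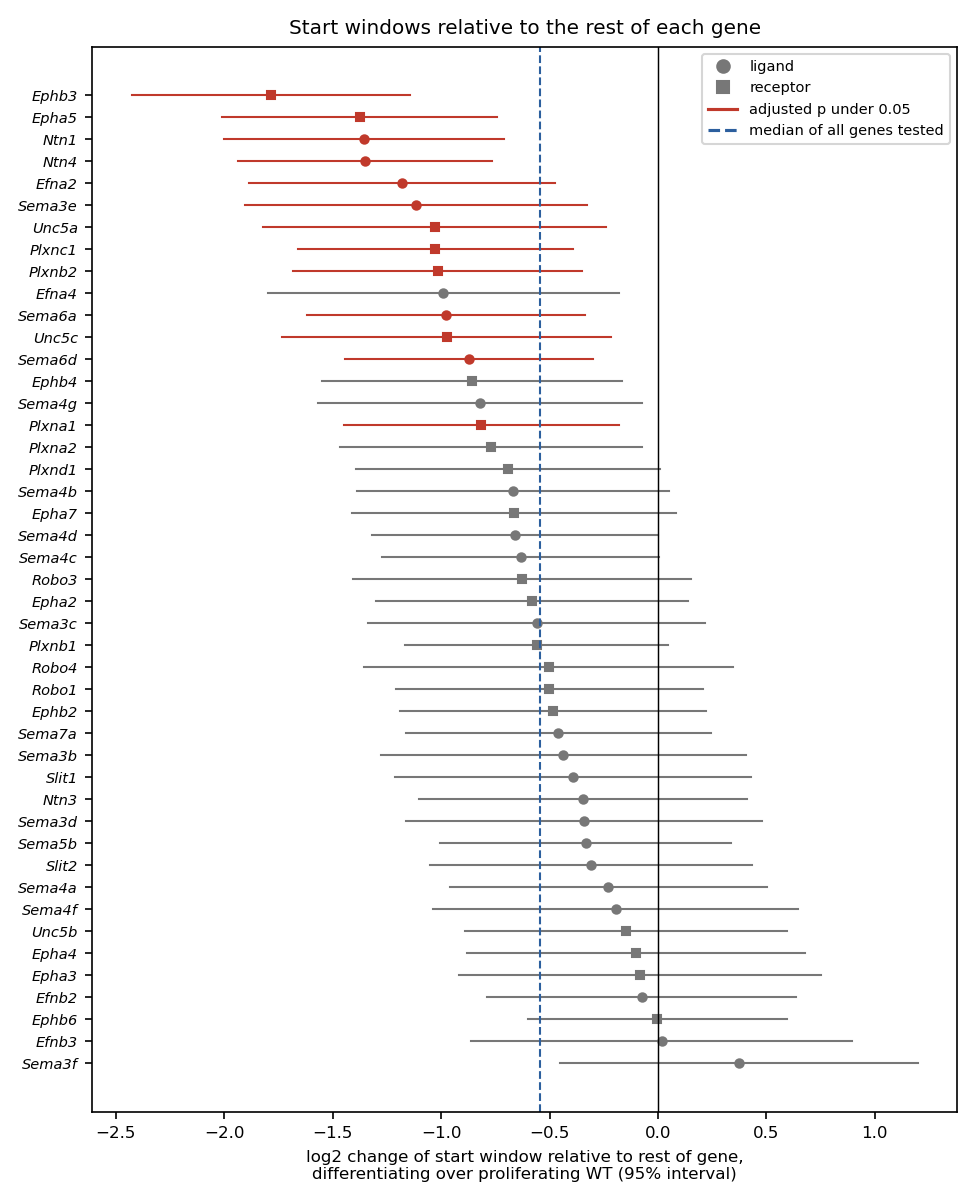
Log2 change of the start window relative to the rest of the gene, differentiating over proliferating WT cells, with 95% intervals, for the 45 guidance genes tested (circles, ligands; squares, receptors; red, adjusted p under 0.05). The dashed line is the median of all genes tested, -0.54, and the 13 red genes lie at -0.82 or below.

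Over gene bodies none of the 59 genes passed between stages, beside 0.163% of the 24564 bodies tested (0.0366% higher, 0.126% lower). At an unadjusted p under 0.05, 1 of the 59 was higher and 2 were lower, beside 1186 higher and 1570 lower of 24564 bodies. The smallest p-values belonged to Plxnb1, a receptor for Sema4d (log2 change 0.26, 95% interval 0.03 to 0.49, adjusted p = 0.402), Sema4a (-0.29, adjusted p = 0.403), Efna1 (-0.31, adjusted p = 0.412), Sema3g (-0.30, adjusted p = 0.453) and Plxnb2 (-0.27, adjusted p = 0.455). The median was -0.08, beside -0.00 over all bodies. Standard errors of 0.06 to 0.28 were smaller than at the starts, and the largest changes among the 59 bodies were 0.33 and -0.38.

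Set against input chromatin, with both stages together, 8 of 47 tested starts were higher and none lower. They were the semaphorins Sema6d, Sema4d, Sema7a and Sema4c, the plexin Plxnb1, and the Eph receptors Epha5, Ephb3 and Ephb4. That is 17.0% of the tested guidance genes, beside 12.5% of all 21557 windows called, 11.6% higher and 0.881% lower. The log2 ratio was above 0 in 44 of the 47, beside 14362 of the 21557 windows. The median was 0.60, beside 0.25 over all windows. Here gene body totals scaled the libraries, and the 2 inputs, 1 per stage, stood as the comparison group with stage as a term. None of the 8 passed against IgG, where their log2 ratios ran from 0.43 (Sema6d) to 2.20 (Sema7a).

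Sema6d, a transmembrane semaphorin that binds plexin A1, had the highest mean start signal of the 59 genes over all 6 WT libraries and ranked after Plxnb1 in differentiating and after Ntn4 in proliferating cells. It held 2.47, 1.10 and 2.93 CPM in differentiating and 4.18, 5.51 and 3.42 CPM in proliferating WT libraries, against 1.42 CPM in the differentiating and 0.758 CPM in the proliferating input. All but 1 of the 6 WT libraries exceeded both inputs. The log2 ratio was 1.43 ± 0.41 (SE, adjusted p = 0.00926). The differentiating IgG library held 2.89 CPM at this window (8 counts), which is within the range of the differentiating WT libraries.

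Sema4d, the ligand of plexin B1, held 1.51, 1.49 and 1.64 CPM in differentiating and 2.64, 3.51 and 2.10 CPM in proliferating WT libraries, against 0.867 and 0.758 CPM in the differentiating and proliferating inputs. Every WT library lay above both inputs. Its log2 ratio was 1.29 ± 0.38 (SE, adjusted p = 0.0122). Plxnb1, its receptor, held 4.06, 1.72 and 2.46 CPM in differentiating and 1.98, 3.76 and 3.68 CPM in proliferating WT libraries, against 0.867 and 1.60 CPM in the same inputs. The ratio was 1.29 ± 0.40 (SE, adjusted p = 0.0187), and unlike the genes above its 2 WT stages overlapped.

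Ephb4, the receptor of Efnb2 in vessels, had a log2 ratio of 1.23 (adjusted p = 0.0164), with 2.07, 1.25 and 1.35 CPM in differentiating and 2.20, 2.00 and 2.76 CPM in proliferating WT libraries, against 0.788 and 0.842 CPM in the differentiating and proliferating inputs. Sema7a, a lipid-anchored semaphorin that promotes axon growth, had 1.23 (adjusted p = 0.0186), with 1.35 to 1.43 CPM in differentiating and 1.71 to 2.86 CPM in proliferating cells, against 0.788 and 0.674 CPM in the inputs. At both genes all 6 WT libraries exceeded both inputs. Epha5 had 1.22 (adjusted p = 0.0196), with 1.02 to 1.70 CPM in differentiating and 1.76 to 3.94 CPM in proliferating cells, against 0.788 and 1.10 CPM in the inputs. Ephb3 had 1.16 (adjusted p = 0.031). Sema4c, another ligand of B-type plexins, had 1.10 (adjusted p = 0.0407), with 1.72 to 2.17 CPM in differentiating and 3.02 to 4.01 CPM in proliferating cells, against 1.02 and 1.43 CPM in the inputs. Sema4c was above both inputs in every WT library, whereas Epha5 and Ephb3 had differentiating libraries below one of them. Sema5b, Efna2, Ntn4 and Ntn1 came next and did not pass, with log2 ratios of 1.01, 1.01, 1.04 and 0.97 and adjusted p of 0.0519, 0.055, 0.058 and 0.0622.

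These calls moved with the libraries and the scaling. Without the differentiating input 12 genes passed, and without the proliferating input none did, where the log2 ratio of Ephb3 was -0.12. As each stage has 1 input, leaving one out leaves the ratio of the other stage alone. Leaving out differentiating WT library 1 gave 5, leaving out proliferating WT library 3 gave 3, and leaving out the 2 WT libraries of high Y gene counts gave 4. With TMM scaling, which sets the median of all windows at -0.02, 3 genes passed, all of them higher, beside 9.49% of all windows called (6.48% higher, 3.01% lower). DESeq2 called 2.

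Stage by stage, none of the 47 starts passed against input in differentiating cells, beside 0.0881% of all windows (0.0835% higher, 0.00464% lower). At an unadjusted p under 0.05 there were 3 higher and 1 lower, beside 1478 higher and 647 lower of all 21557 windows. The smallest p-values were those of Plxnb1 (1.64, 95% interval 0.67 to 2.61, adjusted p = 0.162), Sema6c (-1.21, -2.11 to -0.31, adjusted p = 0.316), Sema4c (0.96, adjusted p = 0.498), Efna2 (1.01, adjusted p = 0.502) and Ephb4 (0.95, adjusted p = 0.509). The median log2 ratio was 0.27, beside 0.09 over all windows.

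In proliferating cells 12 of the 47 were above input and none below (25.5%, beside 18.3% of all windows called, 17.7% higher and 0.524% lower). The median log2 ratio was 0.87, beside 0.45 over all windows. They were led by Ephb3 (2.57 ± 0.51 SE, adjusted p = 4.6e-05), Sema6d (2.46 ± 0.52, adjusted p = 0.000159), Ntn4 (2.01 ± 0.47, adjusted p = 0.000624) and Plxnb2 (1.83 ± 0.49, adjusted p = 0.0026). Sema4d (1.77), Sema7a (1.68), Epha7, a receptor that shapes cortical progenitor survival (1.59), Ntn1 (1.58), Epha5 (1.50), Ephb4 (1.50), Plxna1 (1.46) and Sema4c (1.23) made up the rest. With TMM scaling 3 passed, beside 9.1% of all windows called (6.74% higher, 2.36% lower). Each stage has 1 input, so its ratio assumes that a lone input varies like the WT libraries.

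The difference between the stages' ratios to input was itself tested, and none of the 47 passed, beside 0.0278% of all windows, all of them lower in differentiating cells. The lowest p-values were those of Ephb3 (-2.69, 95% interval -4.12 to -1.26, adjusted p = 0.101), Ntn4 (-1.88, -3.20 to -0.55, adjusted p = 0.262), Sema6d (-1.82, adjusted p = 0.33), Plxnb2 (-1.72, adjusted p = 0.33) and Robo1 (-1.54, adjusted p = 0.364). At an unadjusted p under 0.05, 5 genes were lower and none higher, beside 2051 lower and 196 higher of all 21557 windows. The wide intervals come with standard errors of 0.32 to 0.83.

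Summed over the 59 genes, the start windows held 1.34, 1.07 and 1.18 times the input share of the same stage in differentiating WT libraries and 1.78, 1.83 and 1.68 times in proliferating ones. The means were 1.20 ± 0.14 in differentiating and 1.76 ± 0.08 in proliferating cells (SD, n = 3 each), and the libraries did not overlap. The sum over all genes behaved alike, at 1.07 ± 0.07 and 1.42 ± 0.06 times input in differentiating and proliferating cells. As a share of gene body counts, the 59 windows made 1.42% ± 0.17 in differentiating and 2.31% ± 0.14 in proliferating WT libraries, against 1.31% and 1.43% in the inputs of these stages.

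By family, netrins stood lowest against input in differentiating cells after the Robos and highest in proliferating cells. They held 1.07, 0.904 and 0.887 times input in differentiating and 2.42, 2.92 and 2.22 times in proliferating WT libraries. Eph receptors averaged 1.34 ± 0.22 times input in differentiating and 1.96 ± 0.11 times in proliferating cells (SD, n = 3 each). Semaphorins averaged 1.22 ± 0.14 and 1.78 ± 0.10 times, plexins 1.27 ± 0.18 and 1.72 ± 0.19 times, and ephrins 1.13 ± 0.10 and 1.57 ± 0.06 times in differentiating and proliferating cells. In all of these families the libraries of the 2 stages did not overlap.

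The small families were less uniform. Robos averaged 0.912 ± 0.052 times input in differentiating and 1.32 ± 0.14 times in proliferating cells. The Slit ligands averaged 1.55 ± 0.05 times in differentiating and 1.42 ± 0.26 times in proliferating cells, and the Unc5 receptors 1.10 ± 0.35 and 1.38 ± 0.23 times (SD, n = 3 each). The stages overlapped for Slits and Unc5 receptors and not for Robos. Each family ratio rests on 1 input library per stage, and family members are not replicates of a stage.

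**Figure D3:**
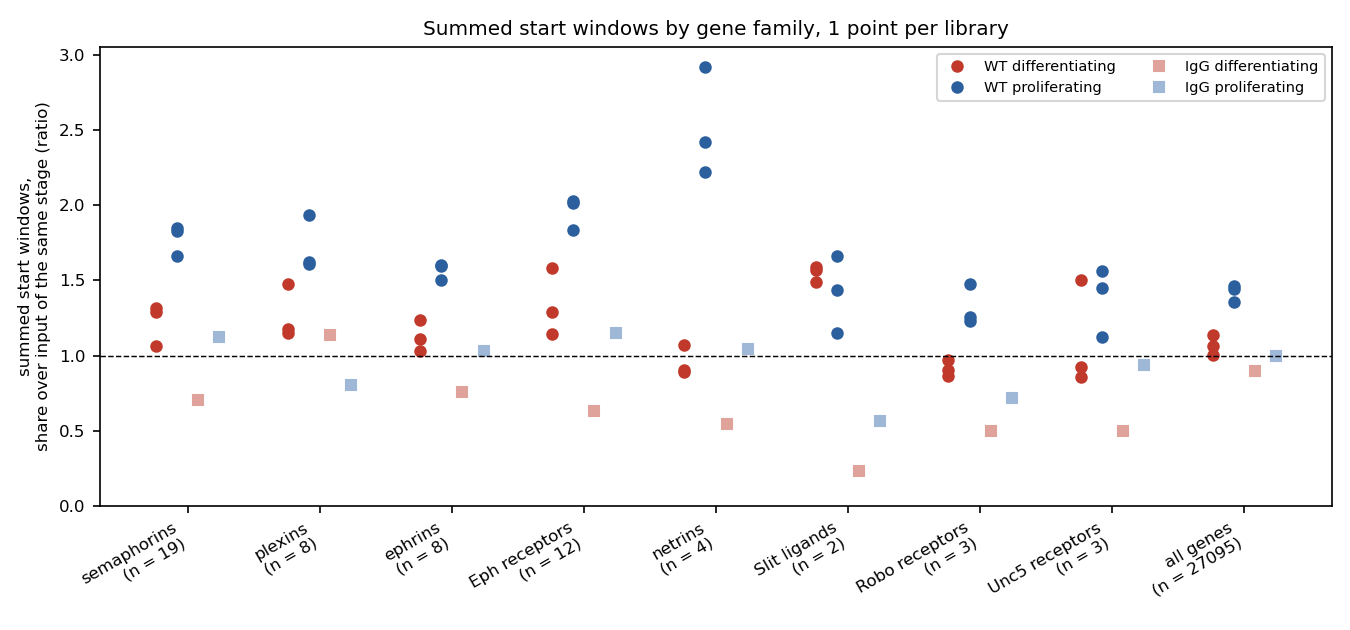
Summed start windows of each family as a ratio to the input of the same stage (dashed line, 1), with 1 point per library for differentiating and proliferating WT H3K14ac (circles) and IgG (squares), and n the number of genes. The 4 netrins lie at 0.887 to 1.07 in differentiating and 2.22 to 2.92 in proliferating WT libraries, and all genes at 1.00 to 1.14 in differentiating and 1.36 to 1.46 in proliferating ones.

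Within families the level differed by member. A 1 kb window has the same length in every gene, so CPM needs no scaling by length. Input signal differed between the windows too, so an order by CPM is not an order by ratio to input. Members were ordered by their mean over the 6 WT libraries. Among semaphorins Sema6d was highest (3.27 ± 1.51 CPM over the 6 WT libraries, SD) and Sema6c, its close relative, lowest (0.843 ± 0.383). Among plexins these were Plxnb1 (2.94 ± 1.01) and Plxna3 (0.773 ± 0.370), among ephrins Efna2 (2.38 ± 0.99) and Efnb1 (0.791 ± 0.267), and among Eph receptors Ephb3 (2.65 ± 1.66) and Epha10 (0.703 ± 0.294), which lacks a working kinase in human. Ntn4 (3.12 ± 1.82) and Ntn5 (1.01 ± 0.46) bounded the netrins. In each stage by itself Sema6d, Efna2 and Ntn4 were again the highest of their families, and Plxna3, Efnb1, Epha10 and Ntn5 the lowest. Ephb3 led the Eph receptors in proliferating cells alone (4.13 CPM), while in differentiating cells, at 1.17 CPM, it was below Ephb4 (1.56 CPM), Epha5 (1.46 CPM) and 5 more. Plxnb1 led the plexins in differentiating cells (2.75 CPM), and Plxnc1 in proliferating cells (3.27 CPM). In the proliferating input Plxnc1 held 2.11 CPM. Plxna1 (3.25 CPM in proliferating WT cells) held 1.10 CPM in that input, and Plxnb2 (2.98 CPM) held 0.842 CPM. The lowest semaphorin was Sema3g in differentiating (0.726 CPM) and Sema3a in proliferating cells (0.759 CPM). The Slits, with Slit2 at 1.51 ± 0.33 and Slit1 at 1.21 ± 0.35 CPM, differed by less than either SD. So did the Unc5 receptors, from Unc5b at 1.48 ± 0.28 to Unc5a at 1.36 ± 0.76. The Robos ran from Robo1 at 1.64 ± 0.53 to the endothelial Robo4 at 1.17 ± 0.42, a gap larger than the SD of Robo4. Each SD spans both stages and so includes the difference between them.

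Epha10, Plxnb3 and Sema6c had mean start signals under the input of the same stage in both stages. Epha10 in differentiating (0.858 against 0.867 CPM) and Sema6c in proliferating cells (0.913 against 0.927 CPM) were close to input. Plxnb3 averaged 0.996 CPM in differentiating and 0.696 CPM in proliferating cells, against 1.18 and 1.01 CPM in the inputs. Epha10 held 0.797, 1.02 and 0.761 CPM in differentiating and 0.220, 0.501 and 0.920 CPM in proliferating WT libraries, against 0.867 and 1.01 CPM in the differentiating and proliferating inputs. Of its 6 WT values 4 were under both inputs. Sema6c held 0.637, 0.861 and 0.820 CPM in differentiating and 0.660, 0.501 and 1.58 CPM in proliferating WT libraries, against 1.81 and 0.927 CPM in the inputs, so all 3 differentiating libraries lay under their input. It was not tested between stages. The start window that the authors counted for 8 genes, Sema6d, Sema6c, Sema3a, Sema4c, Sema4d, Efna3, Efnb3 and Robo1, belongs to a gene model whose length differs from RefSeq's by over 10%, so it may lie at another start than the outer one. With only the other genes counted, 5 of the 8 starts above input remain.

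Against IgG, 2 of 34 tested starts were higher and none lower (5.88%, beside 5.34% of all 13158 windows called, 5.13% higher and 0.205% lower). These were Ntn4, with a log2 ratio of 2.39 ± 0.71 (SE, adjusted p = 0.0264), and Robo1, a Slit receptor, with 3.03 ± 0.97 (adjusted p = 0.042). The IgG libraries held 0 and 3 counts at Ntn4 and 0 and 1 at Robo1 in the differentiating and proliferating stage, so both ratios rest on a few reads. With TMM scaling, or without either IgG library, neither was called. Leaving out differentiating WT library 2 gave 4 genes, and leaving out differentiating library 1 or proliferating library 1 or 2 gave 1. The share of all windows called in these fits is not given, so the counts describe the fits. The median ratio was 0.90, beside 0.67 over all windows. Robo1 was not called against input. Its differentiating WT libraries held 1.83, 1.02 and 1.35 CPM, all below the 1.97 CPM of their input. Its proliferating WT libraries held 2.42, 1.25 and 1.97 CPM, all above the 0.927 CPM of theirs.

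The libraries labelled null could be read only as sums. The 59 windows held 10 counts in the differentiating and 2 in the proliferating one, with 51 and 57 windows at 0. That is 0.510 times input (95% exact Poisson interval 0.245 to 0.938) in differentiating and 0.471 times (0.057 to 1.70) in proliferating cells labelled null, against 1.07 to 1.34 and 1.68 to 1.83 times in WT cells of these stages. IgG held 0.714 times input in the differentiating and 1.00 times in the proliferating stage. Both values of the libraries labelled null lay below every WT library of their stage, and the intervals cover counting error only. Over all genes, WT libraries held 1.00 to 1.14 times input in differentiating and 1.36 to 1.46 times in proliferating cells. The libraries labelled null lay below these too, at 0.907 times in the differentiating and 0.843 times in the proliferating stage. No test was made, with 1 such library per stage, and the Y gene counts of these libraries differ from those of most WT libraries.

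Over gene bodies the ChIP departed from input in both directions. Of the 59 genes, 10 were higher than input (16.9%, beside 8.43% of all 24848 bodies) and 12 lower (20.3%, beside 21.3%), and 29.8% of all bodies passed in either direction. With TMM scaling, which moves the median of all bodies from -0.14 to -0.03, the split was 10 higher and 5 lower, beside 22.7% of all bodies called (11.7% higher, 11% lower). The higher ones were the class 3 semaphorins Sema3a (0.59), Sema3c (0.46), Sema3d (0.49) and Sema3e (0.44), the receptors Epha3 (0.63), Epha5 (0.69), Epha7 (0.50), Unc5c (0.42) and Robo1 (0.18), and the ligand Slit2 (0.45), as log2 ratios with adjusted p of 0.00155 to 0.0199. Among the lower ones were the plexins Plxna3 (-0.85), Plxnb3 (-0.72) and Plxnb2 (-0.40), Sema4g (-0.55), Sema6b (-0.52), Sema6c (-0.51) and Ephb4 (-0.48), with adjusted p of 0.00384 to 0.0344. Without the differentiating input 4 were called, and without the proliferating input none. Without the 2 WT libraries of high Y gene counts 35 were. The share of all bodies called is not given for these fits without some libraries. Their counts describe the fits and not a trait of the guidance genes.

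The direction followed gene length, and IgG did the same. Of the 20 genes of at least 100000 bases 10 were higher and 1 lower, of the 18 genes from 20000 to 100000 bases 0 were higher and 4 lower, and of the 21 shorter ones 0 were higher and 7 lower. The median log2 ratio of IgG to input in these 3 classes was 0.10, -0.41 and -0.49 in the differentiating and 0.09, -0.13 and -0.25 in the proliferating stage, and that of WT ChIP to input was 0.11, -0.19 and -0.24. At Epha5 IgG stood at 0.94 and 0.70 over input in the differentiating and proliferating stage, and the WT libraries at 0.60, 0.73 and 0.85 in differentiating and 0.20, 0.89 and 0.76 in proliferating cells. Across the 59 genes, WT over input had a Pearson r of 0.61 (Spearman coefficient 0.51) with log10 length and of 0.86 (Spearman coefficient 0.73) with IgG over input. The second pair shares its input libraries. How all bodies of these lengths split was not counted. The shortest class includes the 3 X-linked members, described below.

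Against IgG no gene body among the 59 passed, beside 1.28% of the 23685 bodies tested (0.54% higher, 0.739% lower). The 59 held 1 lower and none higher at an unadjusted p under 0.05, beside 2439 lower and 1655 higher of all bodies. The smallest p-values were those of Epha1 (-0.43, adjusted p = 0.224), Plxnd1 (0.38, adjusted p = 0.294), Efnb3 (0.81, adjusted p = 0.334), Sema6d (0.17, adjusted p = 0.352) and Efna2 (-0.37, adjusted p = 0.423). The median was 0.05, beside -0.01 over all bodies.

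**Figure D4:**
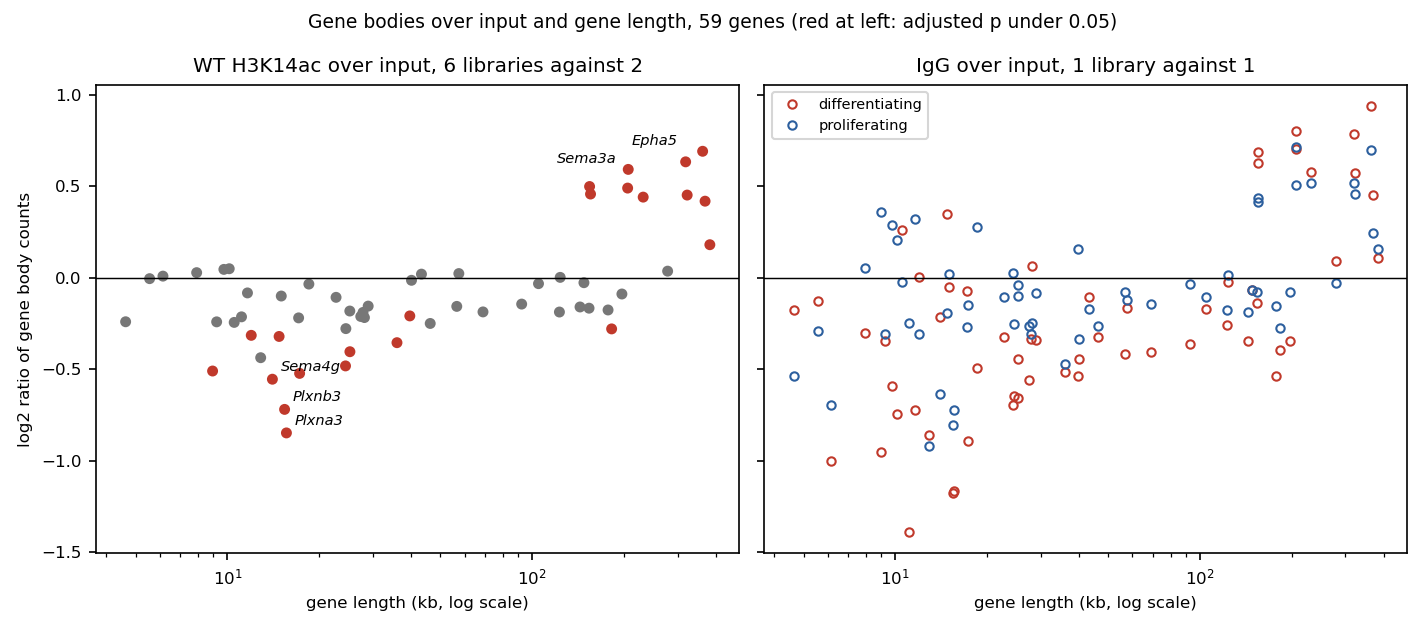
Log2 ratio of gene body counts to input against gene length (kb, log axis) for the 59 genes, for the 6 WT H3K14ac libraries against 2 inputs (left; red, adjusted p under 0.05) and for the IgG library of each stage against its input (right). In both panels genes of 100 kb or more reach ratios above 0.4, and the lowest values belong to genes under 20 kb. Genes under 20 kb include the X-linked Plxna3, Plxnb3 and Efnb1.

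The X-linked members, Efnb1, Plxna3 and Plxnb3, were lower in differentiating library 3 than in the other 2 of that stage. Over gene bodies the log2 ratio to input of Plxna3 was -0.34, -0.33 and -1.38 in differentiating WT libraries 1, 2 and 3, that of Plxnb3 -0.53, -0.75 and -1.36, and that of Efnb1 -0.24, -0.23 and -1.17. In that library X-linked genes took 2.41% of the X and autosomal counts, against 3.73% and 4.04% in the other two, and Y gene counts were high. In proliferating library 1, with an X share of 2.55% against 3.68% and 3.39%, these genes were not the lowest. Plxna3 was at -0.88 there, and at -1.38 and -1.12 in proliferating libraries 2 and 3, so proliferating library 2 was as low as differentiating library 3. Without the 2 WT libraries of high Y gene counts Plxna3 was still below input (-0.68, adjusted p = 6.24e-05), and so was Plxnb3 (-0.65, adjusted p = 1.23e-05). The X share was 2.47% and 2.05% in differentiating and proliferating IgG, against 3.61% and 3.30% in input. Log2 IgG over input in these stages was -1.16 and -0.72 at Plxna3, -1.17 and -0.80 at Plxnb3, and -0.86 and -0.92 at Efnb1. The part of the X share in the length pattern was not tested.

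The starts of other genes of the pathway were read in the same tests. Of 23 guidance co-receptors and further ligands, 19 were tested between stages, with 0 higher and 2 lower, Lrig1, a membrane regulator of receptor tyrosine kinases (-0.88, adjusted p = 0.0292), and Rgma, a ligand of neogenin (-0.87, adjusted p = 0.043). Lower starts made 10.5% of the 19, beside 4.42% of all windows lower and 2.04% higher. The median log2 change of the 19 was -0.40, beside 0.03 over all windows. Against input 3 of 20 were higher and none lower, Lrig1 (1.96), Rgma (1.46) and the netrin receptor Dscam (1.41), with a median of 0.90. That is 15% higher, beside 11.6% of all windows higher and 0.881% lower, with a median of 0.25 over all windows.

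Of 50 genes that carry guidance signals to the cytoskeleton, 46 were tested between stages, with 0 higher and 3 lower. These were Cfl1, the actin-severing cofilin (-1.06, adjusted p = 0.00885), Trio, a guanine nucleotide exchange factor downstream of netrin (-0.90, adjusted p = 0.0302), and the adaptor Nck1 (-0.89, adjusted p = 0.0441). Lower starts made 6.52% of the 46, beside 4.42% of all windows lower and 2.04% higher. The median was -0.37, beside 0.03 over all windows. Against input 18 of 48 were higher (37.5%, beside 11.6% of all windows) and none lower (beside 0.881%). The median log2 ratio was 0.85, beside 0.25 over all windows. Among the higher ones were Trio (2.57), Enah, an actin-binding protein (2.19), Vav3 (2.04) and Rasa1 (1.77). The summed windows of the 50 genes held 1.11 to 1.50 times input in differentiating and 1.96 to 2.55 times in proliferating WT libraries.

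Markers of the cell types in such cultures were read beside these results. Of 12 neural stem and progenitor markers, 1 start was lower in differentiating cells (8.33%), Nes (-1.12, adjusted p = 0.00525), and none higher. Among all windows 4.42% were lower and 2.04% higher. Against input 9 of 12 were higher (75%), beside 11.6% of all windows. The 12 windows summed to 1.40 to 1.99 times input in differentiating and 2.68 to 3.63 times in proliferating WT libraries. Among neuron markers 1 of the 6 tested was higher in differentiating cells, Syt1 (2.09, adjusted p = 0.00499), and none was called lower. The log2 change was above 0 in 3 of these 6 and below 0 in 3, with a median of -0.07. All 12 neuron marker windows summed to 0.986 to 1.18 times input in differentiating and 1.16 to 1.40 times in proliferating cells. Among 8 astrocyte markers Gfap was called higher (1.41, adjusted p = 0.0058) and none lower. The log2 change was below 0 in 5 of the 8, with a median of -0.07. Slc1a2 (-0.69, adjusted p = 0.142) and Gja1 (-0.71, adjusted p = 0.164) came next and did not pass. The 8 windows summed to 0.887 to 1.38 times input in differentiating and 1.11 to 1.55 times in proliferating cells. None of 9 oligodendrocyte lineage markers passed between stages (sums of 1.33 to 1.42 and 1.49 to 1.83). Of the microglia, endothelial and meningeal markers tested none passed between stages or against input over both stages, and their sums ran from 0.888 to 1.29 in differentiating and from 0.713 to 1.22 in proliferating cells. The part of a changed mix of cells in the guidance gene results was not tested.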

How the data were processed

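WT and labelled Hbo1 null H3K14ac ChIP-seq, IgG and input libraries (12 in all) were analysed from 2 tables of raw counts for 27095 genes, the deposited values. One holds counts in start windows of 1000 bases, the other counts over gene bodies. Per the submitters' processing notes, bcl2fastq and featureCounts were used with mm10. The aligner, read filters, strand use and treatment of reads that map to several places are not given in the sources used here, so counts of near-identical family members may share reads. The per-sample count files equalled the table columns.

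Symbols came from RefSeq for GRCm38.p6, which matched 25204 IDs and left 1891 unmatched. Tests were two-sided quasi-likelihood tests in edgeR 4.0.16 (R 4.3.3, prior count 0.125). Benjamini-Hochberg adjustment ran over every gene averaging 10 counts or more, with a threshold of 0.05. The stage comparison used TMM. Comparisons with input or IgG used gene body totals without TMM, because TMM assumes that most regions keep their level, and stage as a term. The start against the rest of a gene was tested with libraries as blocks in genes of at least 2000 bases. Intervals are 95%. The code was tested on simulated data. Alternatives were other scalings, DESeq2 1.42.0, no count filter, a replicate block and leaving out each library. 3 more, without the 2 WT libraries of high Y gene counts, without the length limit, and with matching RefSeq lengths only, were chosen after seeing the data.

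In each comparison the members past the threshold were named (at most 20), or the 5 with the smallest p where none passed, with the highest and lowest start signal of each family and up to 4 genes of each further list. The members and lists were chosen with earlier results of these data known. The 6 pairs of WT libraries within a stage differed by more than counting noise (chi-square per degree of freedom of 1.44 to 5.78 over gene bodies).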

Additional observations from a re-analysis of the deposited data

How the results depend on the processing

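Of the 3 starts lower in differentiating cells, gene body totals gave 13, the replicate block 1, the fit without the 2 WT libraries of high Y gene counts 1, leaving out 1 library 1 to 2, and lifting the length limit 4, of which 1 was higher. Of the 8 starts above input, TMM gave 3, DESeq2 2, the fit without the high Y libraries 4, matching RefSeq lengths 5, and leaving out 1 library 0 to 12, and the log2 ratio of Ephb3 then ran from -0.12 (without the proliferating input, adjusted p = 0.964) to 2.57 (without the differentiating input). Of the 22 gene bodies off input, the fit without the high Y libraries gave 35, TMM and DESeq2 15 each, and leaving out 1 library 0 to 33. Of the 2 starts above IgG, TMM and DESeq2 gave 0, no count filter 1, the fit without the high Y libraries 1, matching lengths 1, and leaving out 1 library 0 to 4. Of the 12 starts above the proliferating input, TMM gave 3 and leaving out 1 library 9 to 13. The 13 starts lower than the rest of the gene became 7 to 13 when 1 library was left out. Comparisons with 0 called genes stayed at 0 in the settings run. Whether the replicate numbers pair the stages is not known. Same-numbered start windows correlated at -0.007, -0.025 and 0.002, and differently numbered ones at -0.013 to 0.019. With every pair near 0, start windows cannot show a pairing. Gene bodies correlated at -0.029, 0.169 and -0.145 for the same numbers, within the range for different numbers (-0.251 to 0.1855). Under the block Ntn4 (adjusted p = 0.0556) and Ntn1 (adjusted p = 0.0528) were not called, and DESeq2 did not call Ntn1 (adjusted p = 0.0938). The cause of these shifts was not tested, beyond the fewer samples or other centring that a setting has by construction. Most of these counts stand without the share of all genes called in the same setting. They describe the settings and not a trait of the guidance genes. Depth limits single windows, which hold few reads.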
